A study of Sus scrofa with 40 samples.

Results

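The effect of calorie restriction on liver gene expression was examined in pigs with high residual feed intake (RFI), by comparing 5 pigs fed at 80% of maintenance for 8 days with 5 pigs fed ad libitum. These 10 liver arrays were chosen by their labelled tissue, RFI class and diet, out of 40 arrays of liver and fat in the series. RFI is the feed a pig eats beyond what its growth and maintenance predict, so high RFI pigs are the less feed-efficient animals. All were prepubertal Yorkshire gilts 6 months of age, chosen as heterozygous for a variant of MC4R, a melanocortin receptor that acts on appetite. The restricted pigs were held below the feed needed to keep body weight, while the ad libitum pigs ate freely. Another 10 liver arrays, from low RFI pigs of the same breed, age and MC4R genotype, 5 restricted and 5 fed ad libitum, entered the model and served to test whether the response to diet differed with RFI class.

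The liver takes up glucose after feeding and turns the surplus into fatty acids, triglyceride and cholesterol, a programme driven by insulin and by the SREBP transcription factors. When feed is short it releases glucose made from lactate, glycerol and amino acids, and it burns fatty acids drawn from fat tissue. In pigs most fatty acid synthesis takes place in fat tissue rather than in liver, so the liver enzymes are one branch of a wider response.

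Expression was read on 1-colour Affymetrix porcine arrays with 15659 probe sets tested in liver. The deposited values are linear intensities, and a log2 difference below is restricted minus ad libitum. On the 10 arrays the trimmed mean intensity lay between 500.13 and 500.15 and the median between 127 and 162. All 22 hepatocyte markers on the array were tested, with ALB, the albumin gene, the brightest at a mean intensity of 37899. The 4 arrays numbered 1 or 2 stood apart from the 6 arrays numbered 3 to 5 along the first principal component, which held 22.1% of the variance. The actin control, read as the log2 ratio of its 3' probes over its 5' probes, was 1.89 to 2.38 on numbers 1 and 2 and 1.18 to 1.71 on numbers 3 to 5. Each set of numbers held pigs of both diets. Between diets the actin ratio was 1.73 ± 0.453 in restricted pigs and 1.64 ± 0.509 in ad libitum pigs (SD, n = 5 each), with a two-sided exact permutation p of 0.738. The GAPDH ratio was 1.19 ± 0.230 in restricted pigs and 0.946 ± 0.232 in ad libitum pigs. Its exact permutation p was 0.127, or 0.381 after adjustment over 3 comparisons, and 0.00794 is the smallest p that 5 against 5 allows. Since the labels do not say how the samples of a group were taken beyond their numbers, p-values measure only the spread between the samples as labelled.

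In high RFI liver 4 probe sets fell with restriction, which is 0.0255% of those tested, and 0 rose, by limma's moderated test at an adjusted p under 0.05. The only one with a gene name was COL6A3, which encodes an alpha chain of type VI collagen, a microfibril collagen that connective tissue cells lay down around other cells. COL6A3 intensity was 435, 549, 522, 614 and 529 in the restricted pigs, against 987, 1098, 761, 787 and 1041 in the ad libitum pigs. The groups did not overlap, the restricted pigs being the 5 lowest, as held for 0.53% of all probe sets. The log2 difference was -0.81 (SE 0.140, adjusted p = 0.0403), a signal 1.76-fold lower. It was -1.09 among the 4 pigs numbered 1 and 2 and -0.63 among the 6 numbered 3 to 5. In bulk liver, fewer cells of a type and less RNA per cell cannot be told apart.

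The other 3 probe sets carry no gene name in the annotation used here. Ssc.1091.1.S1_at read 621, 758, 946, 888 and 752 in the restricted pigs, against 2016, 2061, 2593, 1437 and 2248 in the ad libitum pigs, a log2 difference of -1.37 (SE 0.227). Ssc.11858.1.S1_at read 458, 546, 478, 509 and 369 in the restricted pigs, against 790, 1120, 657, 763 and 974 in the ad libitum pigs, a log2 difference of -0.85 (SE 0.144). Ssc.1447.3.S1_at read 657, 731, 651, 722 and 731 in the restricted pigs, against 1001, 1047, 1021, 977 and 1381 in the ad libitum pigs, a log2 difference of -0.63 (SE 0.109). None of the 3 overlapped between diets, and each had an adjusted p of 0.0403 in limma. The low RFI pigs, which are other animals, showed differences of the same sign and similar size. There COL6A3 differed by -0.91 (adjusted p = 0.00954), Ssc.1091.1.S1_at by -1.34 (adjusted p = 0.0157) and Ssc.1447.3.S1_at by -0.67 (adjusted p = 0.0111), while Ssc.11858.1.S1_at differed by -0.69 (adjusted p = 0.0572).

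These 4 calls stood close to the threshold. With only the 10 high RFI arrays in limma, Ssc.1091.1.S1_at alone passed (adjusted p = 0.0218). There COL6A3 had an adjusted p of 0.156, Ssc.11858.1.S1_at of 0.177 and Ssc.1447.3.S1_at of 0.224. With the replicate number as a block 0 probe sets passed, with COL6A3 at an adjusted p of 0.0762 and a log2 difference of -0.81, and 1494 probe sets had an unadjusted p under 0.05. Without any one of the 10 high RFI arrays other than ad libitum replicate 3, COL6A3 had an adjusted p between 0.0556 and 0.1605, with log2 differences from -0.88 to -0.74 over all 10 omissions. Without ad libitum replicate 3 its adjusted p was 0.0393. Leaving out a low RFI array also moved it past the threshold, to at most 0.0661, for restricted replicates 2 and 4 and for ad libitum replicates 1, 2, 3 and 4. The count of calls was 2 without high RFI ad libitum replicate 3, 1 without high RFI ad libitum replicate 4 and 0 without each of the other 8 high RFI arrays.

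The remaining genes are given as values, since none of them passed the adjusted threshold. At an unadjusted p under 0.05, 636 probe sets were higher in restricted pigs (4.06%) and 428 lower (2.73%), together 6.79% of those tested. The fitted difference was above 0 in 54.6% and below 0 in 45.4%. Complete separation of the 5 restricted from the 5 ad libitum pigs was found upward in 114 probe sets (0.728%) and downward in 83 (0.53%). More than 2-fold differences were seen in 96 probe sets higher (0.613%) and 95 lower (0.607%). Over the 5718 named genes, with 1 probe set each, 3.76% were higher and 3.25% lower at an unadjusted p under 0.05, and 51.8% had a difference above 0, with a median of 0.01. Complete separation held upward for 0.7% of these genes and downward for 0.595%.

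**Figure D1:**
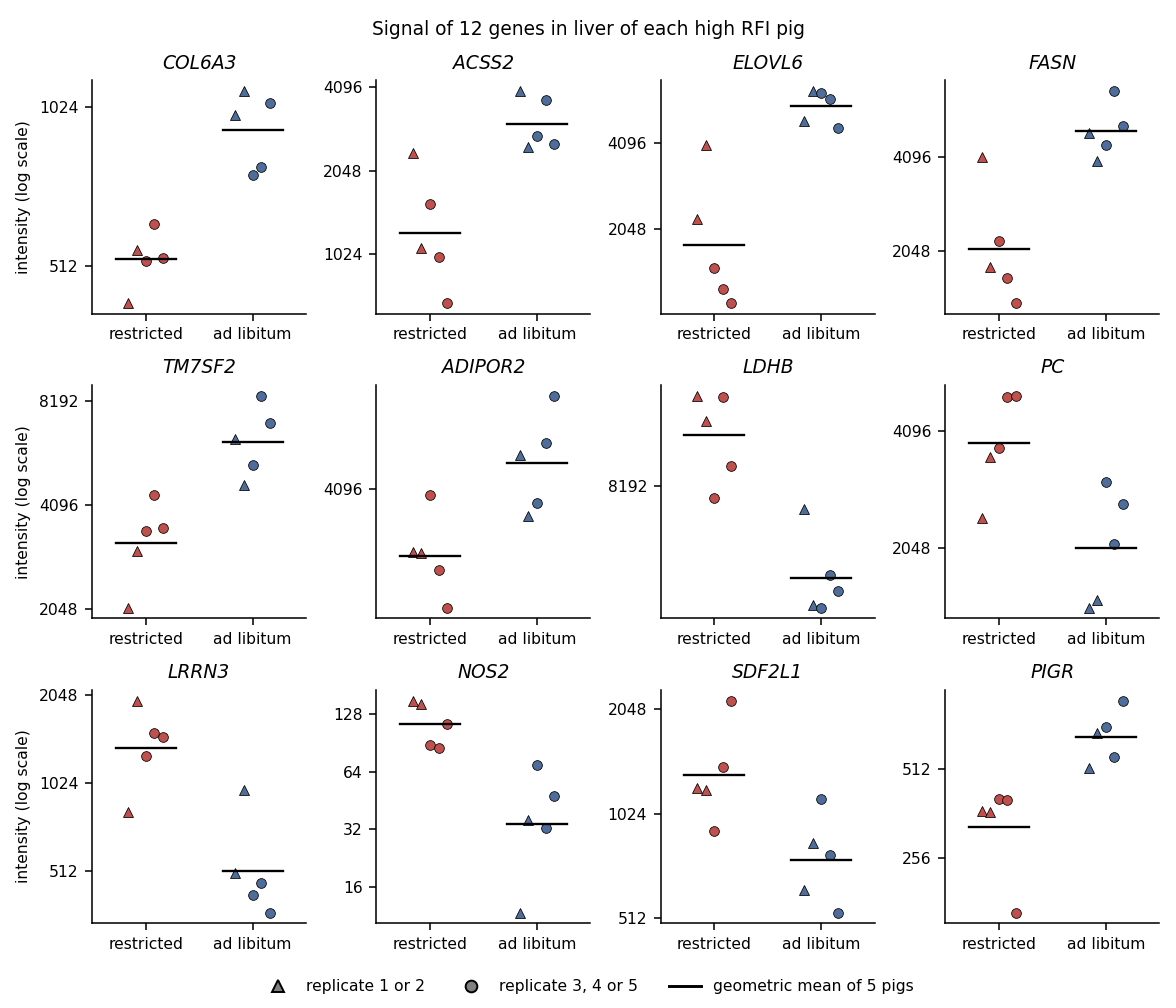
Intensity of 12 genes in liver of each high RFI pig, restricted on the left and ad libitum on the right, on log axes that do not start at 0. Triangles are replicates 1 and 2, circles replicates 3 to 5, and bars geometric means of 5 pigs. COL6A3 is the only gene shown past the adjusted threshold (log2 difference -0.81). All 5 restricted pigs lie below all ad libitum pigs for COL6A3, ACSS2, ELOVL6, TM7SF2 and PIGR and above them for LDHB and NOS2. NOS2 passed the filter only through the restricted pigs, where it is high.

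Most enzymes of fatty acid synthesis had a lower mean signal in restricted pigs, but 0 of the 18 tested passed the adjusted threshold in limma. ACACA, the acetyl-CoA carboxylase, exceeded the filter on 5 arrays, all of ad libitum pigs, and is left out of the counts. Of the other 17 genes, 14 had a difference below 0 and the median was -0.29, with 3 lower and 0 higher at an unadjusted p under 0.05. The median of the 18 was -0.14 among pigs numbered 1 and 2 and -0.48 among those numbered 3 to 5, and it was -0.19 without restricted replicate 5 and -0.18 without ad libitum replicate 5. ACSS2, which activates acetate to acetyl-CoA, read 2368, 1073, 1556, 998 and 680 in restricted pigs, against 3979, 2499, 2726, 3685 and 2562 in ad libitum pigs. All restricted values were below all ad libitum values, and the log2 difference was -1.32 (SE 0.325, adjusted p = 0.320). A separate ACSS2 probe set gave -1.57 (SE 0.356, adjusted p = 0.277), also without overlap.

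ELOVL6, the elongase that lengthens palmitate to stearate, read 2221, 4018, 1500, 1260 and 1130 in restricted pigs, against 4896, 6217, 6104, 5803 and 4629 in ad libitum pigs. The groups did not overlap, at -1.61 (SE 0.425, adjusted p = 0.427). The 3 further ELOVL6 probe sets, at -0.82, -1.29 and -1.01, overlapped between diets. FASN, the fatty acid synthase, read 4081, 1821, 2194, 1677 and 1392 in restricted pigs, against 4875, 3958, 4445, 6647 and 5149 in ad libitum pigs. Restricted replicate 1 was the single restricted pig within the ad libitum range, and the log2 difference was -1.25 (SE 0.395, adjusted p = 0.642). The further FASN probe sets gave smaller differences, -0.93 and -0.92, both with overlap.

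ACACA was dim, at 9.63 to 27.5 in restricted pigs and 11.9 to 207 in ad libitum pigs, and no difference is given since 0 restricted arrays reached the filter. SCD, which desaturates stearate to oleate, ranged from 1918 to 22513 in restricted pigs and from 6169 to 16370 in ad libitum pigs, a log2 difference of -0.65 (SE 0.473, adjusted p = 0.848). ME1, the malic enzyme that supplies NADPH, ranged from 133 to 484 in restricted pigs and from 210 to 417 in ad libitum pigs, a log2 difference of -0.30 (adjusted p = 0.912). Restricted replicate 1 was the highest of all 10 pigs for both SCD and ME1. Within numbers 1 and 2 the log2 difference was 0.07 for SCD and 0.34 for ME1. SREBF1, the transcription factor that drives these genes in rodents and humans, differed by 0.30 (SE 0.280, adjusted p = 0.903).

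Of 18 genes of triglyceride synthesis and lipid droplets 0 passed, 3 were lower and 1 higher at an unadjusted p under 0.05, and the median was -0.09. That median was 0.05 among pigs numbered 1 and 2, and leaving out 1 pig moved it between -0.16 (restricted replicate 4) and -0.03 (restricted replicate 5). LPIN1, a phosphatidate phosphatase, read 757, 525, 311, 855 and 585 in restricted pigs, against 989, 1137, 1471, 750 and 1953 in ad libitum pigs. One ad libitum pig, replicate 4, lay within the restricted range, and the log2 difference was -1.06 (SE 0.409, adjusted p = 0.642). A separate LPIN1 probe set gave -0.65 (SE 0.434, adjusted p = 0.821), with overlap. AGPAT3, an acyltransferase of the same pathway, ranged from 897 to 1139 in restricted pigs and from 603 to 882 in ad libitum pigs, without overlap, at 0.48 (SE 0.218, adjusted p = 0.714).

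Of 13 cholesterol synthesis genes 0 passed, but 12 had a difference below 0, the median was -0.34, and 3 were lower at an unadjusted p under 0.05. TM7SF2, a sterol reductase, read 2067, 3016, 3448, 4375 and 3510 in restricted pigs, against 6373, 4669, 5332, 8477 and 7061 in ad libitum pigs. The groups did not overlap, at -0.97 (SE 0.306, adjusted p = 0.642). SC5D, a sterol desaturase, ranged from 6067 to 9377 in restricted pigs and from 8139 to 12108 in ad libitum pigs, at -0.38 (SE 0.178, adjusted p = 0.728). Among pigs numbered 1 and 2 the 13 genes had a median of -0.03, and among those numbered 3 to 5 it was -0.56. CYP7A1, the rate-limiting enzyme of bile acid synthesis, ranged from 351 to 3028 in restricted pigs and from 1446 to 7080 in ad libitum pigs, at -1.16 (SE 0.639, adjusted p = 0.780), and none of the 7 bile acid genes tested was past an unadjusted p of 0.05.

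Of 25 fatty acid oxidation genes 0 passed, 1 was higher and 1 lower at an unadjusted p under 0.05, and the median was -0.03. Leaving out 1 pig moved it between -0.13 (ad libitum replicate 3) and 0.01 (ad libitum replicate 4). CPT2, counted here, reached the filter only with the high RFI group where it is higher, and the other 24 genes had a median of -0.02. ACADVL, the very long chain acyl-CoA dehydrogenase, ranged from 2056 to 3054 in restricted pigs and from 1260 to 2174 in ad libitum pigs, at 0.50 (SE 0.176, adjusted p = 0.642). DECR1, which prepares unsaturated fatty acids for oxidation, differed by -0.39 (SE 0.166, adjusted p = 0.701). CPT1A, the gate for fatty acid entry into mitochondria, ranged from 772 to 3436 in restricted pigs and from 1430 to 2506 in ad libitum pigs, at -0.39 (adjusted p = 0.851). Restricted pigs held both the lowest and the highest CPT1A values. ANGPTL4, a lipase inhibitor induced by fasting in mice, differed by -0.33 (adjusted p = 0.783), PPARGC1A, a coactivator of oxidative genes, by -0.45 (adjusted p = 0.786), and PDK4, which slows glucose oxidation, by 0.10 (adjusted p = 0.960). The ketone body genes BDH1 and OXCT1 differed by -0.30 and -0.15, both with overlap. A separate BDH1 probe set had the opposite sign, at 0.09 (SE 0.291).

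Of 9 gluconeogenesis genes 0 passed, 1 was higher and 1 lower at an unadjusted p under 0.05, and the median was -0.09. The sign of that median was not stable: it was 0.12 among pigs numbered 1 and 2 and -0.15 among those numbered 3 to 5. Without restricted replicate 2, restricted replicate 3 or ad libitum replicate 4 it was 0.02, 0.12 or 0.09, and without restricted replicate 5 it was -0.23. PC, the pyruvate carboxylase that starts the pathway, read 2441, 3511, 3706, 4979 and 5030 in restricted pigs, against 1442, 1510, 3021, 2095 and 2664 in ad libitum pigs. The pooled groups overlapped, but all restricted pigs lay above all ad libitum pigs within numbers 1 and 2 and again within numbers 3 to 5. The log2 difference was 0.89 (SE 0.291, adjusted p = 0.642), and with the set of numbers as a term in limma its adjusted p was 0.0493. PCK1, the phosphoenolpyruvate carboxykinase, read 18798, 15822, 1871, 13835 and 12021 in restricted pigs, against 8896, 11838, 11630, 10451 and 14998 in ad libitum pigs. Restricted replicate 3 lay far below the rest: the log2 difference was -0.21 (adjusted p = 0.965) with it and 0.39 without it.

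LDHB, a subunit of the lactate dehydrogenase that favours pyruvate, read 11118, 10206, 7856, 11077 and 8780 in restricted pigs, against 7571, 5479, 5426, 6069 and 5736 in ad libitum pigs. The groups did not overlap, at 0.69 (SE 0.163, adjusted p = 0.306), and LDHB was the single gene among 19 of glycolysis and glycogen past an unadjusted p of 0.05. ACO1, the cytosolic aconitase that also acts as an iron regulatory protein, ranged from 4379 to 5259 in restricted pigs and from 3274 to 4012 in ad libitum pigs, at 0.37 (SE 0.0957, adjusted p = 0.376). Its other probe sets pointed the opposite way, at -0.73 and -0.60, so its direction rests on the probe set.

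Amino acid genes had a median of 0.04 over 23 genes (-0.03 without ad libitum replicate 2 and 0.10 without ad libitum replicate 4), 1 higher and 2 lower at an unadjusted p under 0.05. BCAT2, the mitochondrial branched-chain aminotransferase, read 127, 115, 144, 105 and 90.8 in restricted pigs, against 62.5, 70.7, 57.9, 78.3 and 74.3 in ad libitum pigs. BCAT2 did not overlap, at 0.75 (SE 0.222, adjusted p = 0.579), though its level lay below the array median on all 10 arrays. TAT, the tyrosine aminotransferase and a classical glucocorticoid target of rodent liver, read 5026, 6628, 6343, 7085 and 7846 in restricted pigs, against 11046, 10901, 7112, 14641 and 13896 in ad libitum pigs. Only the highest restricted pig and the lowest ad libitum pig crossed, and the log2 difference was -0.78 (SE 0.316, adjusted p = 0.670).

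Ribosomal protein mRNAs shared one sign of difference: all 56 tested had a difference above 0, against 51.8% of all genes, with a median of 0.22, and 27 were higher and 0 lower at an unadjusted p under 0.05, although 0 passed the adjusted threshold in limma. The differences were small, from 0.02 to 0.36. RPL14 read 16472, 16082, 13819, 17573 and 17232 in restricted pigs, against 11612, 13798, 11834, 13679 and 13569 in ad libitum pigs, without overlap, at 0.33 (SE 0.101, adjusted p = 0.642). RPS12 overlapped by 1 restricted pig, replicate 3, at 0.29 (SE 0.0908, adjusted p = 0.642).

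Of the 56 ribosomal genes, 55 lay among the brightest 10% of probe sets, where the median difference was 0.03 and 55.8% were above 0. Quantile normalization left all 56 above 0 with a median of 0.15 and 23 at an unadjusted p under 0.05. Translation factors had a median of 0.06 over 34 genes (0.09 without restricted replicate 4 and without ad libitum replicate 2), with EEF1B2, an elongation factor subunit, at 0.23 (adjusted p = 0.701) and EIF3H, an initiation factor subunit, at 0.37 without overlap (adjusted p = 0.701).

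Chaperones and folding enzymes of the endoplasmic reticulum (ER) had a median of 0.22 over 21 genes, with 16 above 0 and 5 higher and 0 lower at an unadjusted p under 0.05. SDF2L1, a partner of the ER chaperones, read 1210, 1198, 913, 1401 and 2174 in restricted pigs, against 615, 842, 1131, 775 and 529 in ad libitum pigs. The groups crossed at restricted replicate 3 and ad libitum replicate 3, and the log2 difference was 0.81 (SE 0.298, adjusted p = 0.642). HSPA5, the main ER chaperone, differed by 0.35 (SE 0.169, adjusted p = 0.728) and PDIA4, a disulfide isomerase, by 0.42 (SE 0.170, adjusted p = 0.667).

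Genes of ER translocation and N-glycosylation had a median of 0.08 over 49 genes, 6 higher and 0 lower at an unadjusted p under 0.05. That median was -0.01 among pigs numbered 1 and 2, 0.13 among those numbered 3 to 5, 0.03 without ad libitum replicate 5 and 0.13 without restricted replicate 3. PGM3, which makes a precursor of UDP-N-acetylglucosamine, read 1065, 752, 541, 1180 and 903 in restricted pigs, against 469, 740, 554, 385 and 384 in ad libitum pigs, at 0.80 (SE 0.238, adjusted p = 0.579). GMPPB, which makes GDP-mannose, differed by 1.35 (SE 0.488, adjusted p = 0.642). Among 22 cytosolic heat shock genes the median was 0.14 and 3 were higher at an unadjusted p under 0.05, with TCP1, a subunit of the CCT chaperonin, at 0.42 (adjusted p = 0.642). The HSP90AA1 probe sets disagreed in sign, from -0.31 to 0.44.

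**Figure D2:**
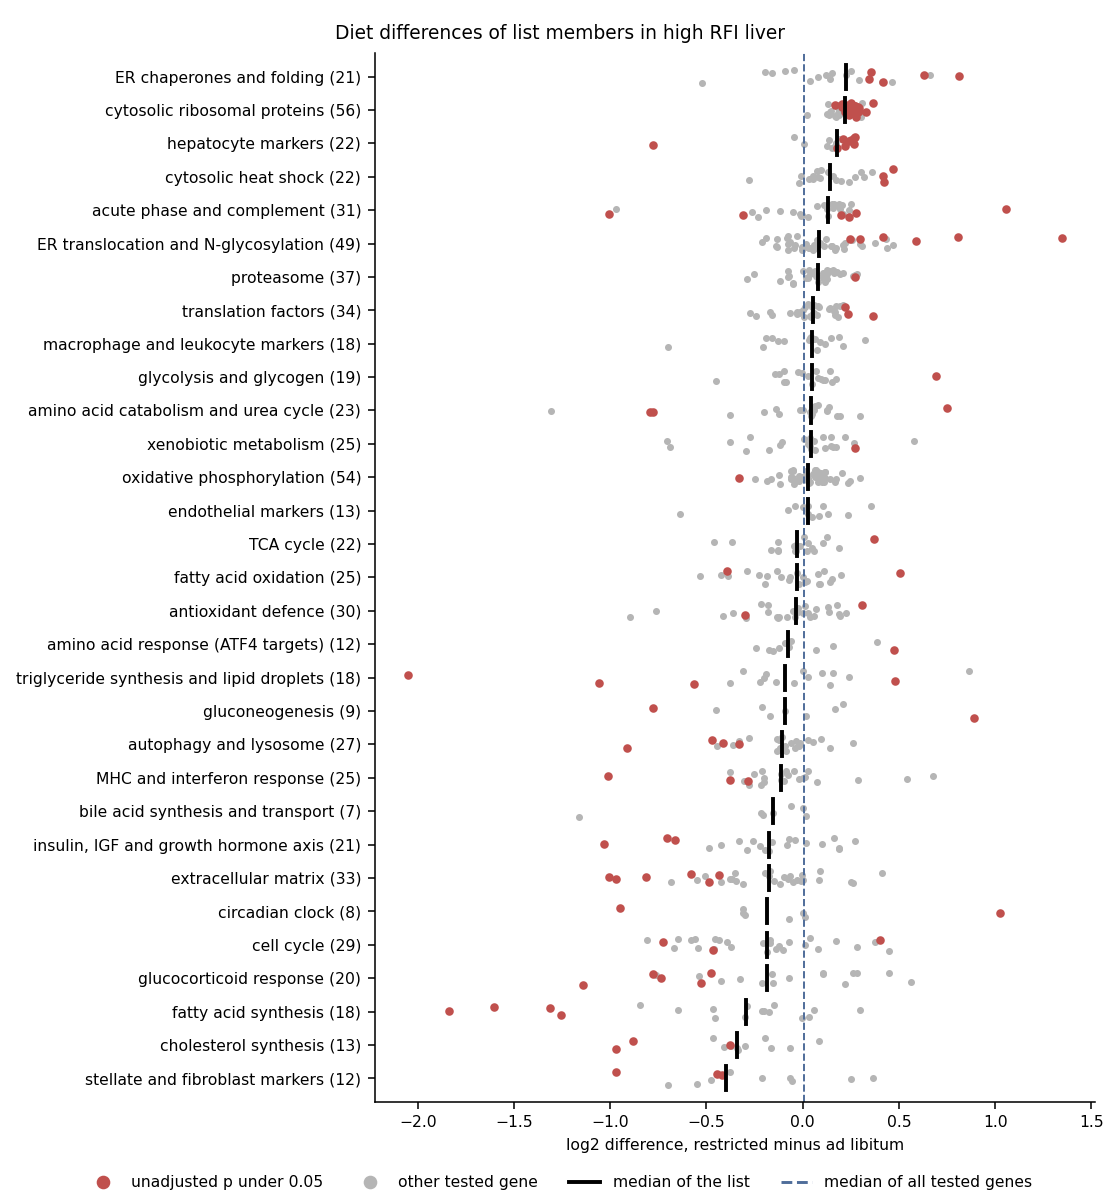
Log2 difference, restricted minus ad libitum, of every tested gene in 31 lists with at least 7 genes, with the number of genes in brackets and lists ordered by median. Red points have an unadjusted p under 0.05, black bars are list medians and the dashed line is the median of all tested genes (0.01). Ribosomal proteins lie in a narrow band with all 56 above 0, while fatty acid and cholesterol synthesis genes have medians of -0.30 and -0.34. Members that reached the filter only with the group where they are higher, such as ACACA, are plotted and counted here. Without ACACA the fatty acid synthesis median was -0.29.

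Among 20 glucocorticoid-responsive genes 0 passed, 5 were lower and 0 higher at an unadjusted p under 0.05, and the median was -0.19. SGK1, a kinase induced by glucocorticoids, read 810, 444, 935, 453 and 1076 in restricted pigs, against 1576, 918, 1203, 1100 and 1105 in ad libitum pigs, at -0.74 (SE 0.263, adjusted p = 0.642). TSC22D3, the glucocorticoid-induced leucine zipper gene, ranged from 1529 to 2479 in restricted pigs and from 2200 to 3153 in ad libitum pigs, at -0.48 (SE 0.182, adjusted p = 0.642). FKBP5, a cochaperone of the glucocorticoid receptor that this hormone induces, had the opposite sign, at 0.56 (SE 0.329, adjusted p = 0.786). Pigs numbered 1 and 2 gave a median of 0.03 over these genes, and pigs numbered 3 to 5 gave -0.24. It was -0.06 without restricted replicate 3, -0.31 without restricted replicate 5 and -0.29 without ad libitum replicate 1.

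The insulin, IGF and growth hormone genes had a median of -0.17 over 21, with 3 lower and 0 higher at an unadjusted p under 0.05. That median was -0.11 among pigs numbered 1 and 2 and -0.07 among those numbered 3 to 5. It was -0.06 without restricted replicate 1, -0.09 without restricted replicate 2, -0.11 without restricted replicate 3, -0.11 without ad libitum replicate 3 and -0.10 without ad libitum replicate 5. ADIPOR2, a receptor for adiponectin, read 2933, 2925, 3970, 2664 and 2187 in restricted pigs, against 4895, 3542, 3795, 5207 and 6700 in ad libitum pigs. Restricted replicate 3 was the single restricted pig within the ad libitum range, and the log2 difference was -0.71 (SE 0.184, adjusted p = 0.399). A separate ADIPOR2 probe set differed by -0.12.

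IGFBP6, a binding protein for insulin-like growth factors, ranged from 39.0 to 88.2 in restricted pigs and from 91.4 to 155 in ad libitum pigs, without overlap, at -1.03 (SE 0.290, adjusted p = 0.545). IGF1, the main growth factor that liver secretes, differed by -0.16 (SE 0.275, adjusted p = 0.960), IGFBP2 by 0.19 (SE 0.390, adjusted p = 0.965) and IGFBP1 by -0.42 (SE 0.751, adjusted p = 0.960). IGFBP1 and IGFBP2 encode binding proteins that rise in fasting in several species. Their spread between pigs of the same diet was wide, at 818 to 11596 for IGFBP1 in restricted pigs and 1333 to 13673 in ad libitum pigs.

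Of 8 clock genes 1 was higher and 1 lower at an unadjusted p under 0.05. ARNTL, a core activator of the clock, read 950, 483, 102, 360 and 276 in restricted pigs, against 230, 147, 261, 121 and 125 in ad libitum pigs, at 1.02 (SE 0.407, adjusted p = 0.642). Restricted pigs held both the highest and the lowest ARNTL values. USP2, a clock-controlled deubiquitinase, differed by -0.95 (SE 0.383, adjusted p = 0.661), and the time of day of sampling was not in the labels used here.

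Of 33 extracellular matrix genes, LUM and COL15A1 reached the filter only with the ad libitum arrays, where they were higher. The other 31 had a median of -0.17, with 25 below 0, 5 lower and 0 higher at an unadjusted p under 0.05, and COL6A3 the single one to pass. SPARC, a collagen-binding matrix protein, read 3786, 4253, 4983, 3603 and 5083 in restricted pigs, against 5664, 6723, 6640, 4597 and 5717 in ad libitum pigs, at -0.44 (SE 0.140, adjusted p = 0.642). Ad libitum replicate 4 was the single ad libitum pig within the restricted range. FBN1, which encodes fibrillin, differed by -0.48, and NID2, a basement membrane nidogen, by -0.58, both overlapping.

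Stellate cell and fibroblast markers without LUM had a median of -0.38 over 11 genes, with 9 below 0 and 2 lower at an unadjusted p under 0.05. VIM, the intermediate filament vimentin of mesenchymal cells, read 2071, 2582, 3355, 3108 and 3393 in restricted pigs, against 4103, 3765, 4194, 3530 and 3877 in ad libitum pigs. VIM did not overlap, at -0.45 (SE 0.142, adjusted p = 0.642). TAGLN, a smooth muscle actin-binding protein, differed by -0.42 (SE 0.175, adjusted p = 0.701). The summed signal of the 12 markers was 8925 to 13022 in restricted pigs and 11593 to 15854 in ad libitum pigs, and its part in the COL6A3 result was not tested. With all members tested, pigs numbered 1 and 2 gave medians of -0.58 for stellate markers and -0.40 for matrix, and pigs numbered 3 to 5 gave -0.18 and -0.13.

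Hepatocyte markers had a median of 0.18 over 22 genes, with 20 above 0 and 8 higher and 1 lower at an unadjusted p under 0.05, and 0 passed. APOA1, the main protein of high density lipoprotein, ranged from 34006 to 43790 in restricted pigs and from 27388 to 35541 in ad libitum pigs, at 0.27 (SE 0.105, adjusted p = 0.642). All 22 lay among the brightest 10% of probe sets, and after quantile normalization the median was 0.02, with 0 higher at an unadjusted p under 0.05. Their summed signal was 584760 to 718150 in restricted pigs and 489310 to 621110 in ad libitum pigs.

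Endothelial markers had a median of 0.03 over 13 genes and macrophage and leukocyte markers 0.05 over 18, with 0 of either list past an unadjusted p of 0.05. Leaving out 1 pig moved these medians between -0.02 and 0.15 and between -0.04 and 0.14. CD4, counted among the 18, reached the filter only with the high RFI group where it is higher, and the other 17 had a median of 0.04. The 3 erythroid markers tested had a median of -0.71 (-0.33 without restricted replicate 2 and -0.34 without restricted replicate 3). AHSP, a haemoglobin chaperone, was at 28.5 to 259 in restricted pigs and 132 to 329 in ad libitum pigs. Markers of other tissues were mostly too dim to test: 4 of 17 muscle markers, 2 of 7 adipocyte markers and 1 of 9 pancreas markers passed the filter, and ADIPOQ and LEP, which define fat cells, were among those that did not. The pancreas marker that passed was AMY2, at a mean intensity of 10937, with no other pancreas marker beside it.

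**Figure D3:**
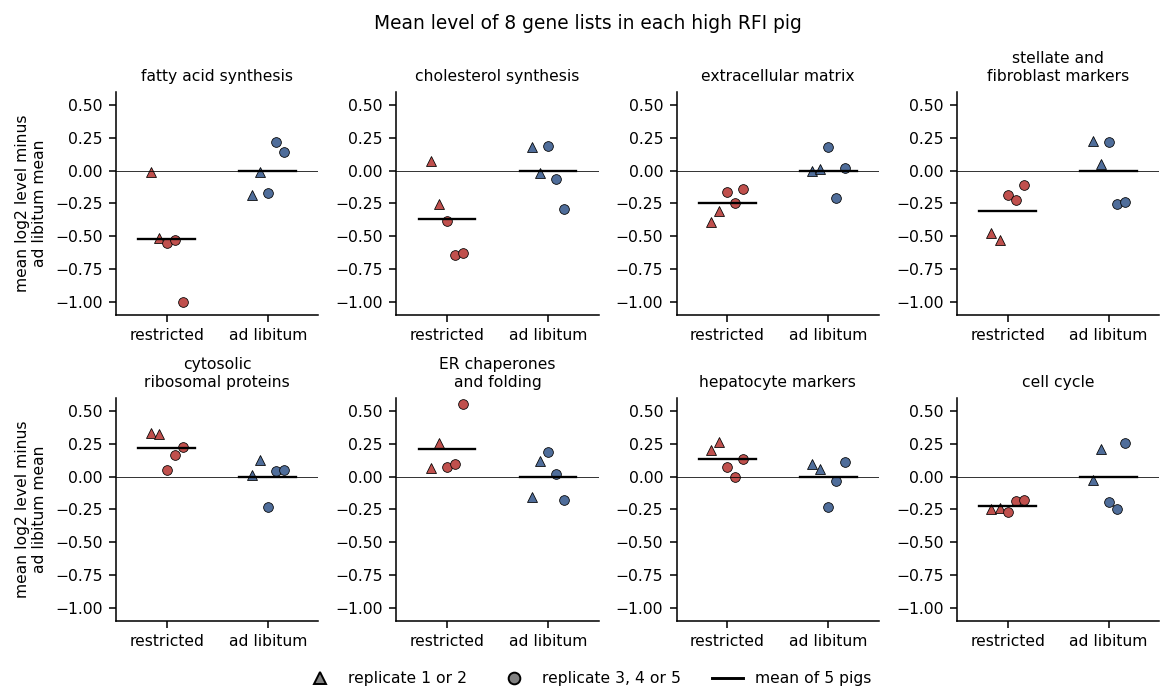
Mean log2 level of 8 gene lists in each high RFI pig, less the mean of the ad libitum pigs, with restricted pigs on the left and ad libitum pigs on the right of each panel. Triangles are replicates 1 and 2, circles replicates 3 to 5, and bars means of 5 pigs. The means take in every tested member. Those that reached the filter only with the group where they are higher are thus included (ACACA, LUM, COL15A1, MCM4 and AURKA). The groups overlap in every panel. With ACACA counted, restricted replicate 1 lies within the ad libitum range for fatty acid synthesis while the other 4 restricted pigs lie below it.

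Among 25 genes of antigen presentation and interferon response 0 passed, 3 were lower and 0 higher at an unadjusted p under 0.05, and the median was -0.11 (-0.04 without restricted replicate 4, -0.17 without restricted replicate 5 and -0.07 without ad libitum replicate 5). SLA-DRB1, a beta chain of MHC class II, read 3016, 1168, 1419, 1618 and 1051 in restricted pigs, against 4044, 3839, 2267, 3522 and 2280 in ad libitum pigs, at -1.01 (SE 0.268, adjusted p = 0.427). Restricted replicate 1 was the single restricted pig within the ad libitum range. Probes for one MHC class II chain may also bind its close relatives or miss some alleles, so this value is uncertain.

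PIGR, the receptor that carries IgA into bile, read 367, 367, 404, 400 and 167 in restricted pigs, against 513, 674, 710, 558 and 870 in ad libitum pigs. PIGR did not overlap, at -1.01 (SE 0.295, adjusted p = 0.579), and its other probe set differed by -1.24. The acute phase and complement list as a whole had a median of 0.13 over 31 genes, 4 higher and 2 lower at an unadjusted p under 0.05, and a median of 0.02 after quantile normalization and of 0.06 without restricted replicate 5. HAMP, which encodes the iron hormone hepcidin, differed by 1.06 with overlap (SE 0.491, adjusted p = 0.717).

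Of 29 cell cycle genes, MCM4 and AURKA reached the filter only with the high RFI group where they were higher. The other 27 had a median of -0.19, with 19 below 0, and 2 lower and 1 higher at an unadjusted p under 0.05. Over all 29 the median was -0.28 without ad libitum replicate 3 and -0.34 without ad libitum replicate 4. TOP2A, a topoisomerase of dividing cells, read 74.9, 79.6, 123, 130 and 96.7 in restricted pigs, against 150, 185, 146, 134 and 213 in ad libitum pigs, without overlap, at -0.73 (SE 0.251, adjusted p = 0.642). CDKN1B, an inhibitor of cell cycle entry, had the opposite sign, at 0.40 (SE 0.157, adjusted p = 0.642).

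Outside these lists, the genes with the smallest p in either direction included several with complete separation, none past the adjusted threshold. LRRN3, a leucine-rich repeat membrane protein, read 817, 1964, 1268, 1521 and 1472 in restricted pigs, against 507, 970, 425, 468 and 370 in ad libitum pigs, at 1.40 (SE 0.312, adjusted p = 0.262). Restricted replicate 1 lay below ad libitum replicate 2 for LRRN3, and every other restricted pig lay above all ad libitum pigs. NOS2, the inducible nitric oxide synthase, read 150, 144, 88.5, 84.7 and 113 in restricted pigs, against 11.8, 35.7, 69.0, 32.5 and 47.8 in ad libitum pigs, at 1.73 (SE 0.410, adjusted p = 0.306). The NOS2 groups did not overlap, but this probe set exceeded the filter on 5 of 20 arrays, 3 of them of restricted high RFI pigs, and so passed only through the group where it is high. Its second probe set gave 0.36 (adjusted p = 0.877) with overlap.

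GPNMB, a glycoprotein of macrophages and lysosomes, ranged from 220 to 292 in restricted pigs and from 116 to 189 in ad libitum pigs, at 0.72 (SE 0.171, adjusted p = 0.306). The RNA-binding protein genes HNRNPA3 and HNRNPU differed by 0.52 and 1.15, both without overlap (adjusted p = 0.344 each). HNRNPU was dim, at 130 to 271 in restricted pigs and 48.6 to 112 in ad libitum pigs, where 2 arrays exceeded the filter. LOC100154873, which has no assigned gene name, differed by 0.73 (SE 0.165, adjusted p = 0.277). Downward, BBS4, a part of the BBSome that carries proteins to cilia, ranged from 279 to 372 in restricted pigs and from 463 to 525 in ad libitum pigs, at -0.56 (SE 0.116, adjusted p = 0.136). ECHDC1, which removes ethylmalonyl-CoA formed by side reactions of acetyl-CoA carboxylase, differed by -0.78 (SE 0.192, adjusted p = 0.320). POLR2B, a subunit of RNA polymerase, gave -0.54 and -0.46 without overlap from 2 probe sets, while the other 2 gave 0.23 and 0.59.

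Whether the response depended on RFI class was asked with the interaction, high RFI difference minus low RFI difference. Of 15659 probe sets, 0 passed in limma (smallest adjusted p = 0.999), and 524 had an unadjusted p under 0.05 (3.35%), 352 with a higher difference in high RFI pigs (2.25%) and 172 with a lower one (1.1%). In the same fit low RFI liver had 5 probe sets higher (0.0319%) and 16 lower (0.102%) past the adjusted threshold, and 776 higher (4.96%) and 801 lower (5.12%) at an unadjusted p under 0.05. The signs of the high and low RFI differences matched in 58.9% of all probe sets, in 73.9% of the 636 higher in high RFI pigs at an unadjusted p under 0.05 and in 80.8% of the 428 lower. Across the 15659 probe sets the differences correlated at r = 0.26, a description over probe sets that share arrays and are not independent.

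Of the 21 probe sets that passed in low RFI pigs, 20 had the same sign in high RFI pigs and 15 were also at an unadjusted p under 0.05 there, and 3 passed in both. For 20 of the 21, which were selected in low RFI pigs, the low RFI difference was the larger one. ME1 differed by -0.30 in high RFI pigs and by -1.53 in low RFI pigs (adjusted p = 0.0439), TSC22D3 by -0.48 and -1.13 (adjusted p = 0.0111 in low RFI pigs), and USP2 by -0.95 and -2.07 (adjusted p = 0.0239 in low RFI pigs). Their interaction had an adjusted p of 0.999 each, so these differences in size did not pass a test. On a single probe set each, ACSS2 and FASN had nearly equal values, at -1.32 and -1.25 in high RFI pigs against -1.50 and -1.24 in low RFI pigs. The interaction was 0.19 (SE 0.460, adjusted p = 0.999) for ACSS2 and -0.01 (SE 0.559, adjusted p = 0.999) for FASN.

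The 5 named genes with the smallest interaction p were DFFA, ENTPD4, TMCO3, KIAA0586 and NOS2, each with an adjusted p of 0.999. DFFA, the inhibitor of a caspase-activated DNase, differed by -0.45 in high RFI pigs and 0.49 in low RFI pigs. The other DFFA probe sets gave -0.41 and -0.16 in high RFI pigs, both with overlap. ENTPD4, a nucleotidase of the Golgi, differed by -0.67 in high RFI pigs and 0.47 in low RFI pigs. NOS2 differed by 1.73 in high RFI pigs and -0.42 in low RFI pigs. This NOS2 probe set passed the filter only through the restricted high RFI pigs where it is high. The second NOS2 probe set gave 0.36 in high RFI pigs, with overlap. TMCO3 and KIAA0586 differed by 0.50 and 1.08 in high RFI pigs and by -0.52 and -0.56 in low RFI pigs.

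At the level of lists, ribosomal proteins had a median of 0.22 in high RFI pigs and 0.22 in low RFI pigs. With ACACA counted, fatty acid synthesis had -0.30 in high RFI pigs and -0.41 in low RFI pigs. Without ACACA the high RFI median was -0.29. ER chaperones had a median of 0.22 in high RFI pigs and 0.50 in low RFI pigs, where 12 of 21 were higher at an unadjusted p under 0.05, against 7.29% of all genes. For ER translocation and N-glycosylation the medians were 0.08 in high RFI pigs and 0.30 in low RFI pigs, with 25 of 49 higher there. Cell cycle genes had -0.19 in high RFI pigs and -0.50 in low RFI pigs, with 14 of 29 lower there, against 4.77% of all genes. The members' own interaction reached an unadjusted p under 0.05 in 0, 1 and 1 genes of these 3 lists, so a difference between the RFI classes was not shown for them.

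**Figure D4:**
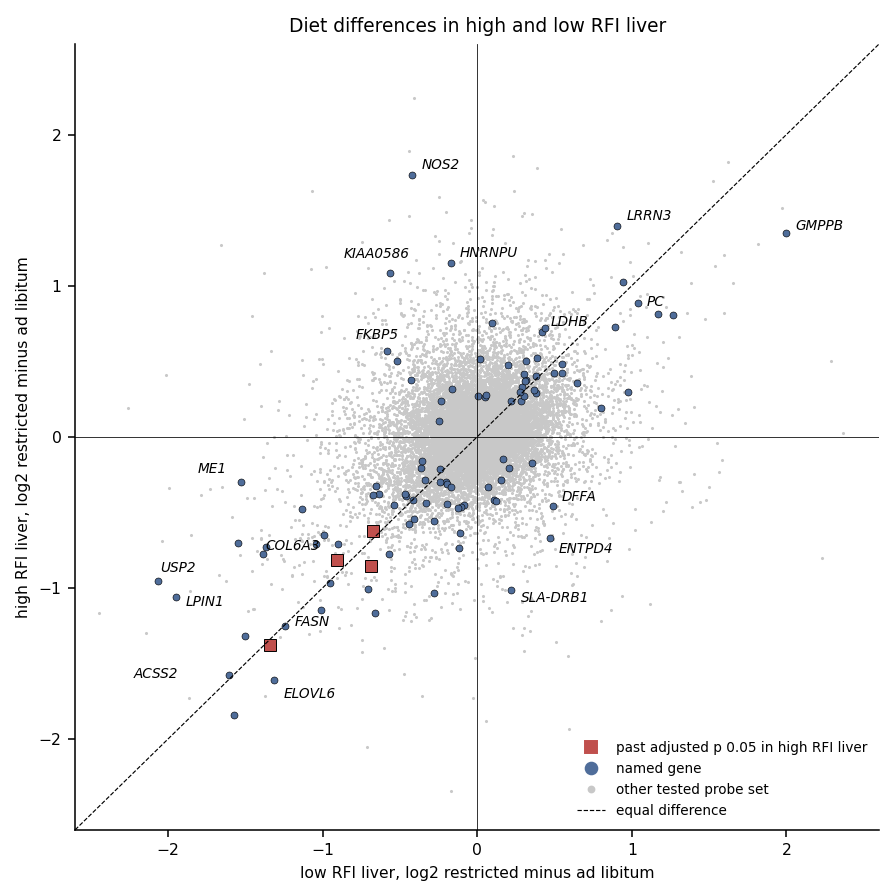
Diet difference in high RFI liver (vertical) against that in low RFI liver (horizontal), both log2 restricted minus ad libitum, for each tested probe set (grey; 4 lie outside the axes), named genes (blue) and the 4 past the adjusted threshold in high RFI liver (red squares). The dashed line marks equal differences, and the red squares lie close to it. NOS2, at 1.73 and -0.42, passed the filter only through the restricted high RFI pigs where it is high, and its interaction did not pass.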

How the data were processed

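Liver RNA of 20 pigs was measured on 1-colour arrays, 5 per combination of RFI class and diet. The deposited files give each probe set a linear intensity, made by the authors from the scanned arrays. The submitters' processing notes name affy and MAS5, with no role or version. The trimmed mean lay near 500.1 on every array. No counts underlie them, so the number of arrays limits the precision.

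Of 24123 probe sets, 124 controls were left out. Intensities were log2-transformed without an offset. A probe set was tested if it exceeded the 40th percentile of an array on 5 or more of the 20 (15659 did). The platform annotation gave 1 symbol to 10069 of 23999 probe sets, several to 198 and none to 13732, and symbols matched through gene IDs to RefSeq (9961 probe sets) needed no change. After the data were seen, members that reach the filter only with the 5 arrays of the high RFI group where they are higher (519 of 15659 probe sets) were left out of the list counts of fatty acid synthesis, matrix, stellate cells and cell cycle. Where a listed gene had several probe sets, the brightest on average stood for it.

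A group-means model of the 20 arrays was fitted with limma 3.58.1 in R 4.3.3 (lmFit, eBayes with an intensity trend, two-sided), with Benjamini-Hochberg adjustment over all probe sets tested and a threshold of 0.05. Control ratios were compared by exact permutation of the diet labels. Lists are described by counts and medians beside all genes. The members, gene lists and naming rule were chosen with earlier results of these data known. The rule names the genes that pass, those with the smallest p up to 8 in each direction, the 2 members of each list with the smallest p, 26 fixed genes (some of which are not reported here) and the 5 with the smallest interaction p. Other list members named were chosen after their values were seen.

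Same-numbered pigs of the 2 diets deviated together, with correlations of 0.280, 0.198, 0.124, 0.136 and 0.105 after group means were removed. For 3 of the 5 numbers a pig of another number correlated more highly (0.206, 0.302 and 0.172, against 0.198, 0.136 and 0.105 for the same number). The lowest correlations with another number lay between -0.257 and -0.093. A single same-number value is here set against the extremes of several others, so the strength of the pairing is not decided. The blocked fit is given beside the calls. In simulated data for this contrast (15659 probe sets), 67 were changed by 0.5 on the log2 scale, 67 by 1 and 66 by 2. Of these, 13.4%, 62.7% and 89.4% were recovered, with 2 false among 112 calls. The adjusted threshold is less strict when more probe sets pass, and far fewer passed in the measured data. These rates can therefore overstate recovery in the measured contrast, which was not estimated. Plots used Python 3.11.15 with matplotlib 3.10.9.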

Additional observations from a re-analysis of the deposited data

Results flagged for a closer look

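In 12 of 206 groups of 5 pigs a single pig lay far from the other 4 by Dixon's criterion on log2 values (gap over range above 0.71). Chance flags about 1 in 20 groups. The values follow as linear intensities, with no explanation weighed.

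Restricted replicate 3 was far below the other restricted pigs for PCK1 (1871, the others 12021 to 18798), for IGFBP1 (818, the others 7400 to 11596) and for MARCO, a macrophage scavenger receptor (9.18, the others 74.4 to 126). Ad libitum replicate 1 was also low for IGFBP1 (1333, the others 10199 to 13673) and for GMPPB (25.5, the others 74.7 to 92.1), and high for FKBP5 (947, the others 350 to 465).

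Ad libitum replicate 4 was high for PDHA1, a pyruvate dehydrogenase subunit (2927, the others 1309 to 1645), and low for AMY2, a pancreatic amylase (5801, the others 10371 to 11840). Restricted replicate 1 was low for the cathepsin gene CTSH (1770, the others 2836 to 3246), restricted replicate 2 for VWF, the von Willebrand factor (11.4, the others 67.9 to 113), and restricted replicate 5 for PIGR (167, the others 367 to 404). Ad libitum replicate 5 was high for Ssc.1447.3.S1_at, 1 of the 4 probe sets past the threshold (1381, the others 977 to 1047).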

How the results depend on the processing

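The count of 4 probe sets past the threshold became 1 with only the 10 high RFI arrays, 0 without the intensity trend, 0 with the replicate block, 2 with only numbers 1 and 2 (both higher, PGA5 and an unnamed probe set, and none of the 4) and 0 with only numbers 3 to 5, and leaving out 1 high RFI array gave 0 to 2. It was 4 under both other filters and with an offset, 6 after quantile normalization and 5 with the set of numbers as a term or with the actin ratio as a covariate, the fifth being PC in both, and all 4 were kept under each of these. Leaving out a low RFI array gave 0 to 7. No result changed sign past the threshold. The interaction count of 0 became 1 without low RFI ad libitum replicate 3, and leaving out any other array gave 0. At an unadjusted p under 0.05, 1064 probe sets became 691 with only numbers 3 to 5, and 524 for the interaction became 869 without a filter, 304 with the stricter filter, 824 with the replicate block and 1047 with only numbers 1 and 2. The block changed no call beyond the 4 it removed. The cause of these changes was not tested. Quantile normalization moved the median of all probe sets to -0.001, against 0.025, and turned the split at an unadjusted p under 0.05 to 532 higher and 543 lower, against 636 and 428. Leaving out the members that reach the filter only through the group where they are higher, an alternative chosen after seeing the data, moved no list median by more than the spread between pigs. Genes near or below the array median, such as NOS2, BCAT2, TOP2A and ACACA, have the least signal over background.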

Other observations

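Genes of oxidative phosphorylation and of the TCA cycle had medians close to that of all genes in high RFI liver. Of these and of the protein turnover genes below, 0 passed the adjusted threshold in limma. Of 54 genes of oxidative phosphorylation the median log2 difference was 0.03 (between -0.01 and 0.09 when 1 pig was left out), and NDUFA5, a subunit of respiratory complex I, differed by -0.33 (adjusted p = 0.729). The TCA cycle genes had a median of -0.03 over 22 (between -0.07 and 0.01). Proteasome genes had a median of 0.08 over 37 (0.03 without restricted replicate 1 and 0.05 without ad libitum replicate 3), with 29 above 0, and PSMB6, a catalytic subunit, differed by 0.27 (adjusted p = 0.661).

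Genes of autophagy and lysosome had a median of -0.11 over 27 (-0.06 without restricted replicate 1), with 22 below 0 and 4 lower and 0 higher at an unadjusted p under 0.05. Among them were the cathepsin genes CTSZ, at -0.47 (adjusted p = 0.647), and CTSH, at -0.41 (adjusted p = 0.705). The antioxidant genes had a median of -0.03 over 30 (between -0.10 and 0.01 when 1 pig was left out), with the peroxiredoxins pointing apart: PRDX4, the ER member, differed by 0.31 and PRDX1, a cytosolic member, by -0.30. The xenobiotic metabolism genes had a median of 0.04 over 25, of -0.06 after quantile normalization and of -0.01 without ad libitum replicate 3. Amino acid response genes had a median of -0.08 over 12 (between -0.08 and -0.02 when 1 pig was left out), with DDIT3, a stress transcription factor, at 0.48 (adjusted p = 0.715).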
